A study of Mus musculus with 8 samples.

Results

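Ybx3, Akt1, Gna12, Ryk, Ppp2cb, Ier5l, Sepn1, Marveld1 and Rcc2 are 9 of the 24346 gene symbols listed for mesenchymal cells sorted from mouse large intestine and profiled by RNA sequencing. They were chosen by their FPKM in the 6 time libraries, because their values were lower at 6 h than at 0 h of treatment with GABA and taurine and because they moved together between replicate libraries of the same time. Their 6 h difference and their co-movement are therefore descriptions without a test, and all 9 were among the 10910 genes whose mean reached 1 FPKM (fragments per transcript length and sequencing depth) in the time libraries. The time comparison held 3 libraries at 6 h and 3 at 0 h, from C57BL/6 cells under taurine at 20 mM and GABA at 1 mM. Whether the sorted cells or the mice received these amino acids is not clear from the labels. A genotype comparison held 1 library of untreated cells from Foxl1cre; Cxcl12 flox/flox mice, called the knockout below, and 1 from Cxcl12 flox/flox mice without Cre, called the control, so both carried the floxed allele. In the knockout the Cre is driven from Foxl1, a transcription factor of the mesenchymal cells under the gut epithelium. In both comparisons the sort kept cells without CD45, EpCAM and CD31, positive for gp38, high for PDGFRα and negative for Ly6C. No 6 h library without GABA and taurine was among the samples, so time and treatment cannot be told apart, and the sources used here state neither the ages of the mice nor any pooling.

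The 9 genes do not form a single known pathway. AKT1 is a serine and threonine kinase that acts downstream of phosphoinositide 3-kinase in growth and survival signalling, and protein phosphatase 2A, for which Ppp2cb encodes a catalytic subunit, removes phosphate from many proteins, AKT among them. Gna12 encodes a G protein alpha subunit that relays signals from cell surface receptors, and RYK is a membrane receptor for Wnt ligands whose kinase domain is considered inactive. YBX3 is a cold shock domain protein that binds RNA and DNA, Sepn1 (current symbol Selenon) encodes a selenoprotein of the endoplasmic reticulum, Marveld1 encodes a protein with a MARVEL membrane domain, Rcc2 encodes a relative of the chromatin protein RCC1 that takes part in mitosis, and Ier5l is named for its likeness to the immediate early response gene Ier5.

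A feature that did not enter the choice of the 9 genes is the base composition at the start of their transcripts. In GENCODE M21 (GRCm38), with the transcript of the longest coding sequence taken for each gene, G and C made up 85.0% of the first 300 bases in Ppp2cb, 84.7% in Akt1, 84.3% in Gna12, 83.3% in Ryk and 81.7% in Ybx3. The shares were 77.0% in Marveld1, 76.3% in Sepn1, 69.7% in Ier5l and 55.7% in Rcc2. The value depended on the transcript taken: over the coding transcripts of each gene it ran from 54.3% to 84.7% in Akt1, from 62.7% to 84.3% in Gna12, from 68.3% to 77.0% in Marveld1, from 78.3% to 83.3% in Ryk and from 55.7% to 65.3% in Rcc2. The median was 81.7% for the 9 genes and 61.3% for the 10545 tested genes with a transcript, whose 90th percentile was 73.7%. For the whole transcript the medians were 58.0% and 50.5%. Other features lay closer together, with medians of 43.7% and 42.7% GC in the last 300 bases. Median transcript lengths were 2690 and 2918 bases, and median exon numbers 10 and 9. In 6 of the 9 genes the GC-rich stretch is also visible within the protein-coding sequence. Its first 120 bases are given below in lower case, with runs of at least 6 G or C in capitals.
Ybx3 (chr6:131388136-131388255, minus strand): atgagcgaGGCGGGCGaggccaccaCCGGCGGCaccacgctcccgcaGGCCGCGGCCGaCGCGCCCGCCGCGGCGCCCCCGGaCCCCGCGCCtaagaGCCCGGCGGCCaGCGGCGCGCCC
Gna12 (chr5:140830177-140830296, minus strand): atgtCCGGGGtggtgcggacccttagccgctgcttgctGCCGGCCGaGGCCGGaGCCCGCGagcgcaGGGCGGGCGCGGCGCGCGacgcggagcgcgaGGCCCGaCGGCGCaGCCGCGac
Ryk (chr9:102835056-102835175, plus strand): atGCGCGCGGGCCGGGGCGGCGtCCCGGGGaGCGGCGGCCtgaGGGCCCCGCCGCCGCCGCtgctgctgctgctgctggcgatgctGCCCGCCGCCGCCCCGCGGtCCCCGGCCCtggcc
Sepn1 (chr4:134552000-134552119, minus strand): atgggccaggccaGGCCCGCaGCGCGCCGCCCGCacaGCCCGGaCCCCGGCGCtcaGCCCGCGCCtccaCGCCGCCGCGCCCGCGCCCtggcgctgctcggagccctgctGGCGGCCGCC
Marveld1 (chr19:42147649-42147768, plus strand): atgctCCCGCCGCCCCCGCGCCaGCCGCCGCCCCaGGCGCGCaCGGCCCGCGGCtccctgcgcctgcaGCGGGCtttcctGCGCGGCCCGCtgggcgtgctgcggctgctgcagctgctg
Rcc2 (chr4:140702157-140702276, plus strand): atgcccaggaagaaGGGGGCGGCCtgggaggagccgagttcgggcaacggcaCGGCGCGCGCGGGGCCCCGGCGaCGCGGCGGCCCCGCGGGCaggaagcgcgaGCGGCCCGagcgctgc
These stretches, each within a single exon, held 80.8% to 85.8% G and C. In Akt1 and Ppp2cb the first 120 coding bases held 50% and 54.2%, and the GC-rich part lay before the coding sequence. Rcc2 was the reverse, with 420 bases before the coding sequence. Ier5l held 64.2% in its first 120 coding bases. Ybx1, a relative of Ybx3 that differed by 0.00 between the times on the log2 scale, held 80.8% there, with a longest run of 26 G or C. Such a stretch was therefore not particular to the 9 genes, and its share over all genes was not taken. The 9 genes lie on 8 chromosomes, with Sepn1 and Rcc2 both on chromosome 4.

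Ybx3 (chr6:131364855-131388438) was the most abundant of the 9 genes. It stood at 89.0, 97.0 and 158 FPKM in the 6 h libraries, against 329, 384 and 203 FPKM in the 0 h libraries. The 6 h values all lay below the 0 h values, the highest 6 h and the lowest 0 h value belonging to the libraries numbered 3. The means were 115 ± 37.8 FPKM at 6 h and 305 ± 92.7 FPKM at 0 h (SD, n = 3 each), a difference of -1.40 in log2(FPKM + 1), with a standard error of 0.22. In these bulk libraries fewer cells of a type and less RNA per cell cannot be told apart, for Ybx3 as for the genes that follow. Ybx1, the more widely expressed relative, averaged 294 ± 2.28 FPKM at 6 h and 293 ± 8.59 FPKM at 0 h (limma adjusted p = 0.988). Ybx3 lay above Ybx1 in 0 h replicates 1 and 2, and below it in 0 h replicate 3 and in every 6 h library.

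Akt1 (chr12:112653821-112674276) stood at 81.4, 84.6 and 113 FPKM at 6 h, against 174, 168 and 133 FPKM at 0 h. It had the smallest difference of the 9 genes, -0.77 with a standard error of 0.12 on the log2 scale, and its 6 h mean was 58.8% of its 0 h mean. The related kinase gene Akt2 did not pass the test. It averaged 56.2 ± 6.30 FPKM at 6 h and 58.9 ± 1.62 FPKM at 0 h (adjusted p = 0.843, limma). FPKM being per length, Akt1 was more abundant than Akt2 in every time library. Ppp2cb (chr8:33599625-33619441) stood at 12.5, 13.2 and 20.2 FPKM at 6 h, against 33.3, 47.2 and 23.3 FPKM at 0 h. Its difference was -1.10 with a standard error of 0.21 on the log2 scale. Ppp2ca, which encodes the other catalytic subunit and was the more abundant transcript in every time library, averaged 258 ± 4.50 FPKM at 6 h and 279 ± 6.76 FPKM at 0 h (limma adjusted p = 0.486), and the scaffold gene Ppp2r1a averaged 227 ± 5.59 FPKM at 6 h and 237 ± 8.16 FPKM at 0 h (limma adjusted p = 0.751). Ppp2ca and Ppp2cb encode closely similar proteins and the sources used here do not state how shared reads were assigned, so a split between them is uncertain.

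Among the receptor and G protein genes, Gna12 (chr5:140758408-140830431) stood at 16.0, 19.0 and 26.6 FPKM at 6 h, against 45.9, 46.4 and 33.7 FPKM at 0 h. Ryk (chr9:102834917-102907542) stood at 13.7, 14.0 and 20.3 FPKM at 6 h, against 30.8, 40.8 and 24.4 FPKM at 0 h. The mean at 6 h was 48.9% of that at 0 h for Gna12 and 49.9% for Ryk, and the groups did not overlap in either. The log2 differences were -1.01 for Gna12 and -0.95 for Ryk. Gna13, the other member of the same G protein class, averaged 25.6 ± 0.828 FPKM at 6 h and 22.9 ± 1.19 FPKM at 0 h (adjusted p = 0.583, limma). Gnaq and Gna11, alpha subunits of the Gq class, differed by -0.11 and -0.05 on the log2 scale (adjusted p = 0.769 and 0.863, limma). The Wnt receptor kinases Ror1 and Ror2 and the related Ptk7 differed by 0.05, -0.08 and -0.17 on the log2 scale, and none of the 3 passed the test.

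Ier5l (chr2:30471537-30474219), a single-exon gene, had the largest difference and the largest spread. It stood at 4.31, 5.50 and 11.2 FPKM at 6 h, against 29.3, 30.7 and 14.4 FPKM at 0 h, a log2 difference of -1.71 with a standard error of 0.29. Its highest value was 2.13 times its lowest within 0 h and 2.59 times within 6 h. The immediate early genes Ier5 (52.0 ± 2.15 FPKM at 6 h and 48.1 ± 2.59 FPKM at 0 h) and Ier2 (223 ± 9.51 FPKM at 6 h and 238 ± 23.0 FPKM at 0 h) did not pass the test. Sepn1 (chr4:134537892-134552166) stood at 14.6, 17.0 and 23.7 FPKM at 6 h, against 37.4, 38.9 and 27.0 FPKM at 0 h, a log2 difference of -0.88. Atp2a2, which encodes the calcium pump of the endoplasmic reticulum, averaged 143 ± 4.04 FPKM at 6 h and 142 ± 7.09 FPKM at 0 h (limma adjusted p = 0.987).

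Marveld1 (chr19:42147400-42151703) had the lowest mean of the 9 genes at both times, with 4.86, 6.43 and 7.12 FPKM at 6 h, against 10.6, 14.2 and 9.73 FPKM at 0 h. Rcc2 (chr4:140700541-140723220) stood at 30.0, 32.3 and 41.8 FPKM at 6 h, against 68.8, 63.6 and 47.7 FPKM at 0 h. Their log2 differences were -0.81 and -0.77. Rcc1, which encodes the exchange factor of the GTPase Ran, averaged 65.6 ± 3.61 FPKM at 6 h and 58.9 ± 5.29 FPKM at 0 h (limma adjusted p = 0.575). The tight junction relative Marveld2 reached at most 0.0259 FPKM and was not tested.

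**Figure D1:**
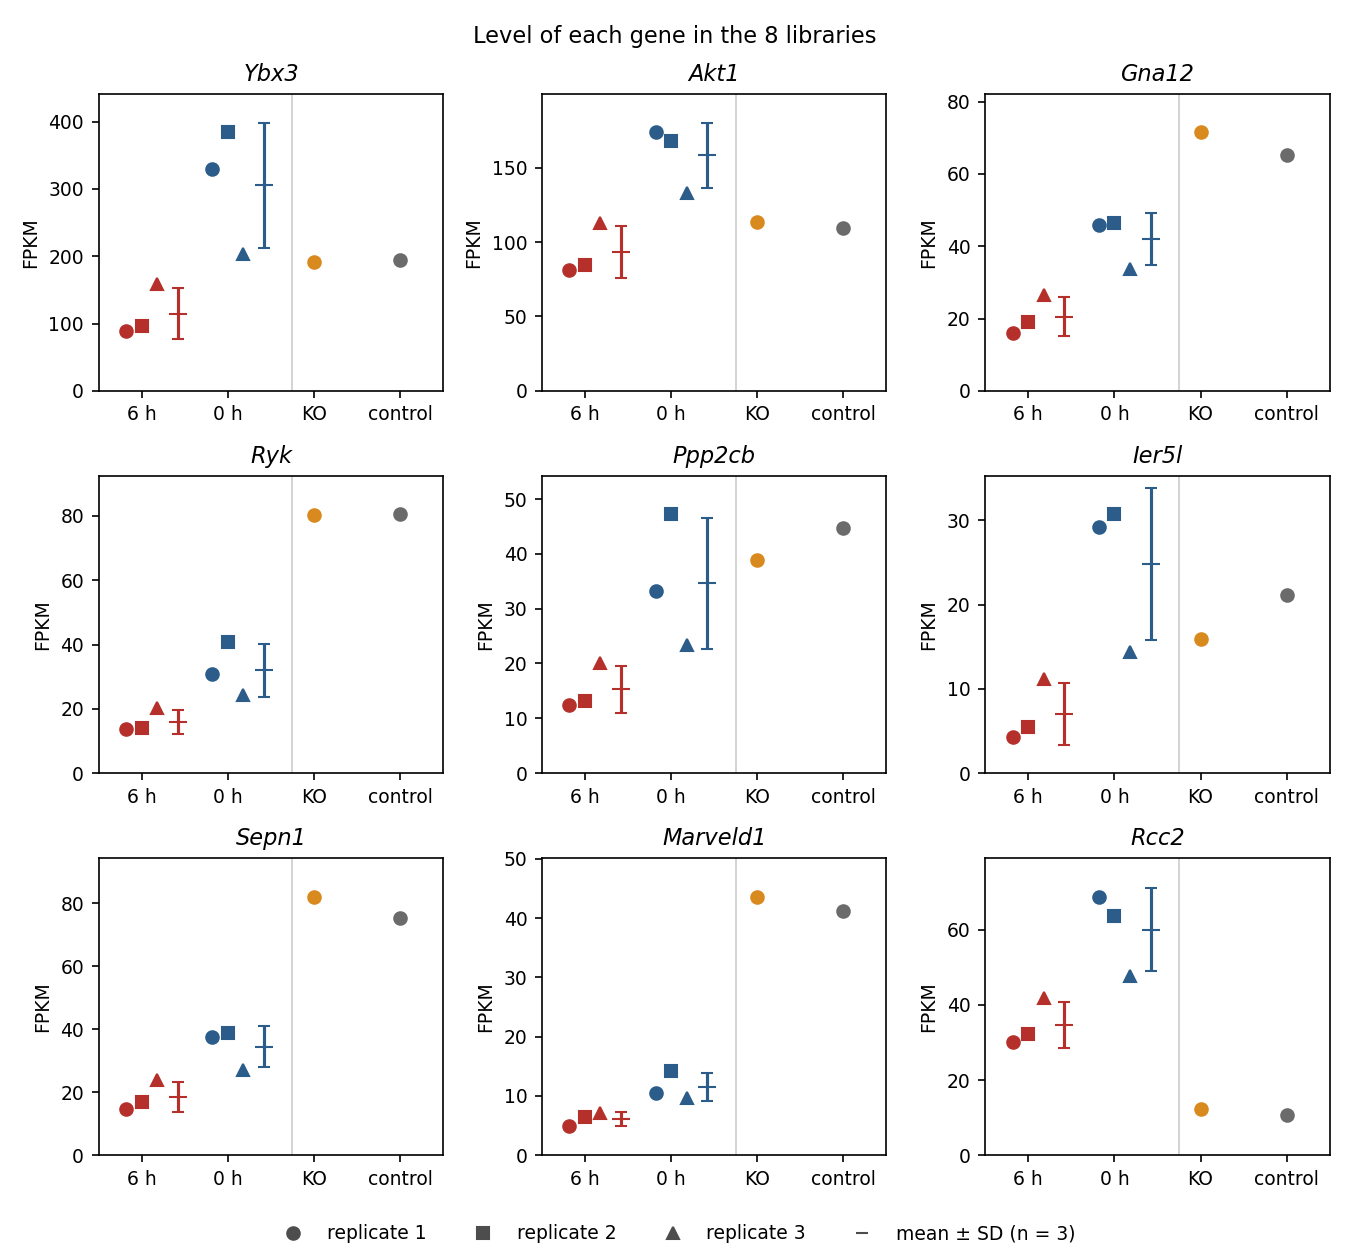
FPKM of each of the 9 genes in the 8 libraries, with 6 h and 0 h on the left of each panel and the knockout (KO) and control libraries on the right. Points are libraries, their shape is the replicate number, and bars are mean ± SD of 3 libraries. In each panel all 6 h points lie below all 0 h points. Among pairs of a 6 h and a 0 h library, the libraries numbered 3 lie nearest each other.

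The background for these falls was small by the test and larger by overlap. All 9 genes had every 6 h value below every 0 h value, as did 874 of the 10910 tested genes (8.01%). Nothing is read from that count, since the 9 genes were chosen for lower 6 h values. In limma, 34 of 10910 genes (0.312%) were lower and 26 (0.238%) higher at 6 h, at an adjusted p under 0.05. These counts rest on single libraries: the lower calls numbered 3, 1 and 58 without 0 h replicate 1, 2 or 3, and 1, 0 and 11 without 6 h replicate 1, 2 or 3. The 9 genes were all among the 34, which is not independent of their choice. Of the 9, 0 were called without 0 h replicate 1 or 2 or without 6 h replicate 1 or 2. Without 0 h replicate 3 it was 9, and without 6 h replicate 3 it was 4. The median log2 difference was -0.95 for the 9 genes and 0.00 for all tested genes, and the fall of the 9 genes was larger, with a median of -1.30, when both libraries numbered 3 were left out.

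The 9 genes shared their pattern between replicates. In all 9 the lowest 0 h value was in replicate 3 and the highest 6 h value in replicate 3, a combination found in 13% of tested genes. All 9 had their 6 h libraries in 1 order, shared by 16.9% of tested genes, and 7 of 9 their 0 h libraries in 1 order, shared by 14.4%, Akt1 and Rcc2 having replicate 1 and not replicate 2 on top. Over the 36 pairs of genes, Pearson's r of log2(FPKM + 1) within 6 h ran from 0.74 to 1.00 with a median of 0.99, and within 0 h from 0.50 to 1.00 with a median of 0.94. Each of these correlations has 3 points that share their libraries, so they describe the order and spacing of 3 values and carry no p. Within 6 h 29 pairs, and within 0 h 21 pairs, had an r of at least 0.9. Among the 10901 other tested genes, 15.2% within 6 h and 13.6% within 0 h had an r of at least 0.9 with the mean of the 9.

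When the deviations from the group means were taken over all 6 libraries, each gene had an r of 0.81 (Marveld1) to 1.00 (Ybx3) with the mean of the other 8, with a median of 0.95. The mean deviation of the 9 genes was -0.28, -0.11 and 0.39 in 6 h replicates 1, 2 and 3, and 0.11, 0.27 and -0.38 in 0 h replicates 1, 2 and 3. The size of the movement differed between genes: per unit of that mean, Ier5l moved by 1.7, Ybx3 by 1.34, Ppp2cb by 1.21 and Marveld1 by 0.623. Ier5l, Ybx3 and Ppp2cb also had the largest differences between the times. The spread within groups was high for all 9, from percentile 85.0 (Akt1) to 99.4 (Ier5l) of the tested genes.

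**Figure D2:**
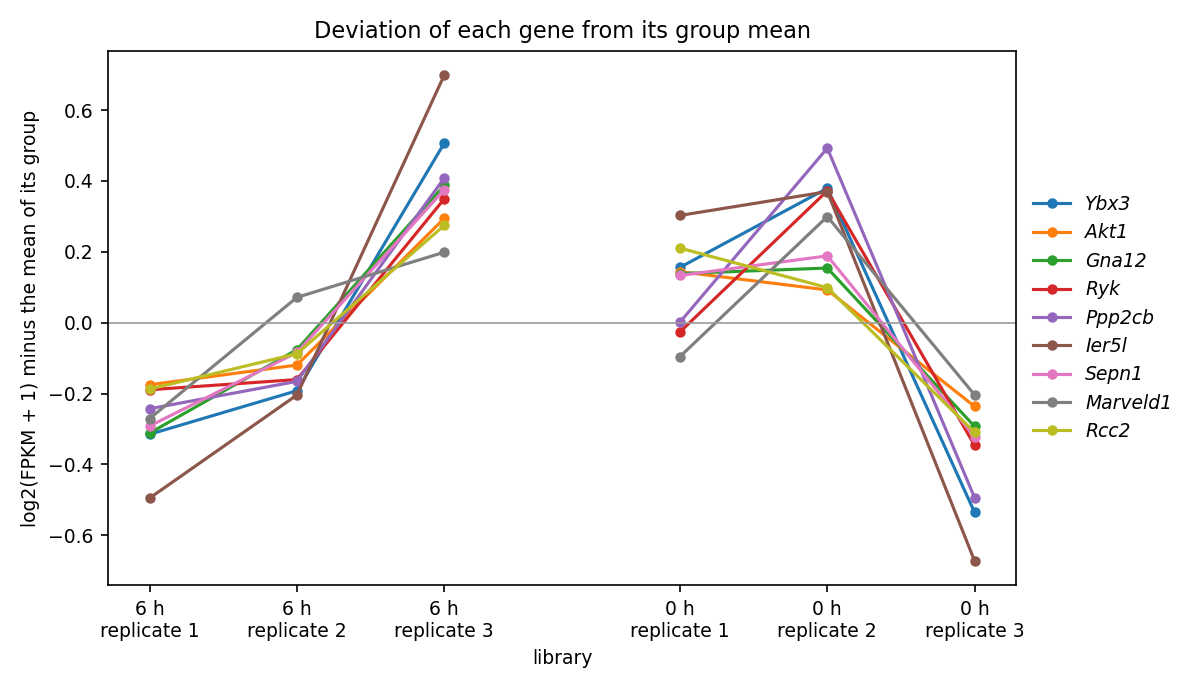
Deviation of each of the 9 genes from its group mean, in log2(FPKM + 1), with the 6 h libraries on the left and the 0 h libraries on the right. Each line is a gene and joins libraries only to show which points belong to it; within 6 h all lines are highest in replicate 3, and within 0 h all are lowest in replicate 3.

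Genes with the same pattern within groups were sought among 6301 other genes averaging 10 FPKM or more, without use of the difference between the times. The 10 most alike by Pearson's r over the 6 libraries were Atxn2, Cyth2, Dmwd, Kdm2b, Map1lc3b, Atg2a, Zfp869, Mrpl52, Klf2 and Rasl11b, all with an r of 0.99. Of these, 7 had a lower and 3 a higher mean at 6 h, and only Dmwd passed the test. Of all 6301 genes compared 3404 had a lower mean at 6 h, and of the 151 with an r of at least 0.9, 95 were lower and 6 called lower. A further 153 had an r of -0.9 or below. Dmwd averaged 19.4 ± 3.01 FPKM at 6 h and 31.4 ± 5.36 FPKM at 0 h (adjusted p = 0.041, limma). Atxn2, which encodes an RNA-binding protein, averaged 10.2 ± 2.39 FPKM at 6 h and 15.4 ± 2.87 FPKM at 0 h (adjusted p = 0.219, limma). Map1lc3b, an autophagy gene, averaged 151 ± 6.56 FPKM at 6 h and 146 ± 6.81 FPKM at 0 h (adjusted p = 0.858, limma), so a like pattern within groups also occurred in genes whose times did not differ past the test. Of the 25 other genes called lower, 7 had an r of at least 0.9 with the 9 genes, among them Lrp3, Larp1, Rab21 and Cdk2ap1, chosen after their values were seen. None of the 26 genes called higher did, and among the 6301 genes averaging 10 FPKM or more 2.4% did. The called genes were not limited to that level, and Lrp3 averaged 6.13 FPKM. Hmox1, also chosen after its values were seen, encodes the heme-degrading enzyme and was called lower; it had an r of 0.02 with the 9 genes.

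Other genes called lower at 6 h also had GC-rich transcript starts. Of the 31 lower genes with a transcript, 23 (74.2%) lay in the top 20% of genes by GC of the first 300 bases, over 69.7%, against 2 of the 26 higher genes. With the 9 genes left out, it was 16 of 22. The median GC of the first 300 bases was 77.5% in these 22 and 55.5% in the 26 higher genes. Windows of 500 and 100 bases placed 80.6% and 54.8% of the lower genes in their top 20%. For the whole transcript, 17 of the 31 lower and 5 of the higher genes lay in the top 20% of GC. The bounds and windows were chosen after the values were seen, and without 0 h replicate 1 the share was 0 of the 1 called gene with a transcript.

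Genes with the most GC-rich starts, most of them not called, were more often lower than higher at 6 h. Among 169 other tested genes with at least 80% GC in the first 300 bases, 44 (26.0%) had all 6 h values below all 0 h values and 7 (4.14%) had them all above. From 60% to 70% GC the shares were 8.17% and 7.09% of 3891 genes. In the 169 genes 7 were called lower and 0 higher by limma, and their median log2 difference was -0.11. Their mean level, in log2(FPKM + 1) relative to each gene's mean over the 6 libraries, was -0.13, -0.13 and -0.01 in 6 h replicates 1, 2 and 3, against 0.12, 0.16 and 0.00 in 0 h replicates 1, 2 and 3. The 9 genes stood at -0.80, -0.64 and -0.13 in these 6 h libraries and at 0.63, 0.79 and 0.14 in these 0 h libraries. In both sets the libraries numbered 3 lay nearest to 0 at each time. The mean of the 10367 other genes below 80% GC stayed within 0.01 of 0 in every library. The part of base composition in the falls was not tested, and Rcc2, with 55.7%, was among the 9.

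**Figure D3:**
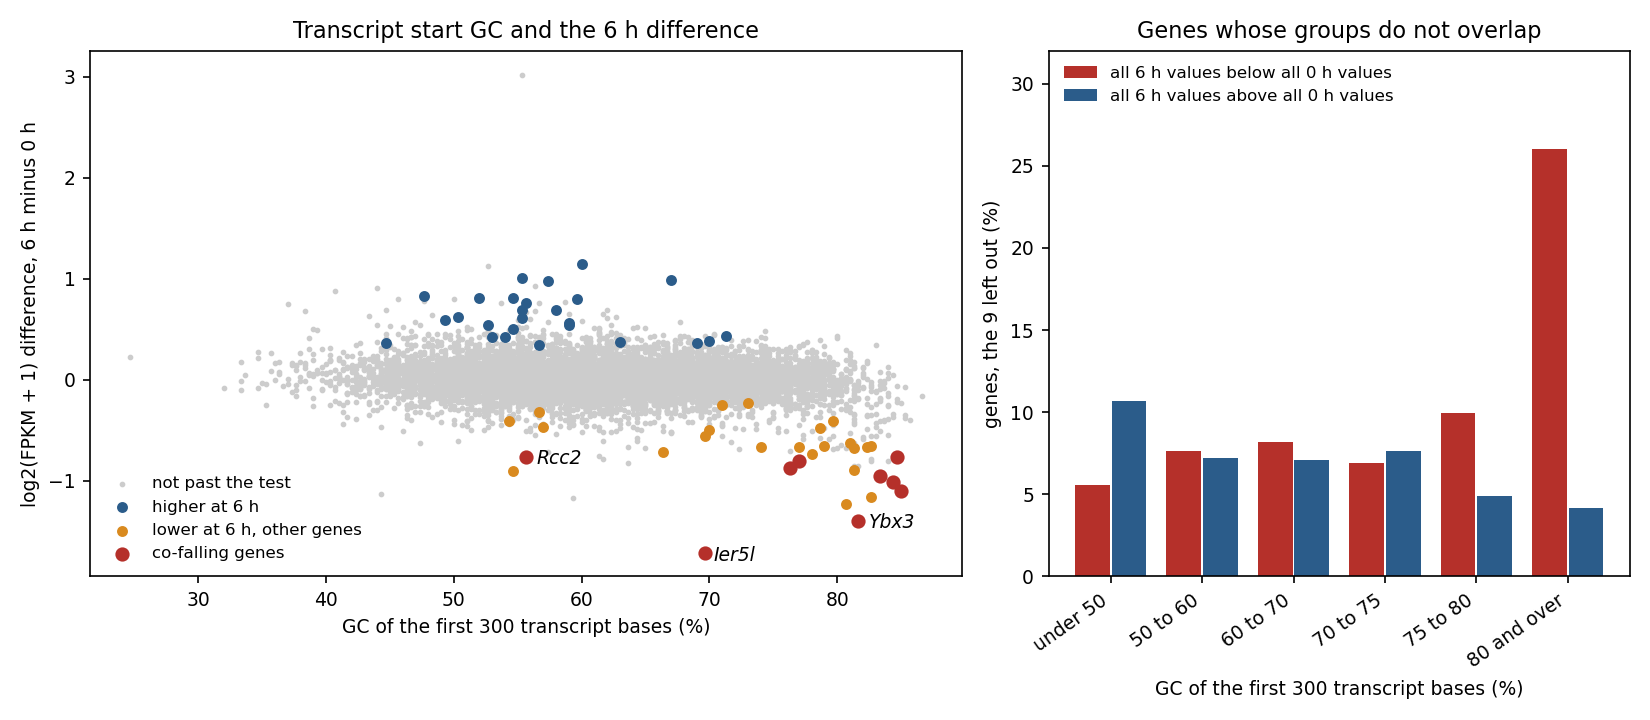
Left, log2(FPKM + 1) difference of 6 h minus 0 h against the GC percent of the first 300 transcript bases for 10545 genes, with the 9 co-falling genes, other lower and higher genes in colour. Right, the percent of genes, without the 9, whose 6 h values all lie below (left bars) or above (right bars) the 0 h values, by GC; at 80% GC and over the shares are 26.0% and 4.14%.

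The promoters of 8 of the 9 genes, in 9 windows from 250 bases before to 50 after the start, were taken from RefSeq (GRCm38.p6). Their median GC was 65.7% and their median number of CpG 30, against 52.7% and 7 over all 32851 windows of the same length, which also hold genes that these cells do not express. The GC box GGGCGG, searched on both strands like each motif here and scored as present or absent, with no motif inside another, was found in 7 of the 9 windows and in 35.7% of all windows. CCAAT was in 2 and TATAA in 1 of the 9, against 37.4% and 24.9% of all windows. The letters CACGTG, TGACGTCA and TGAGTCA were in none of the 9, and in 7.15%, 1.79% and 5.20% of all windows. The 250 bases before the start are shown for Ybx3 and for the more downstream of the 2 Akt1 starts, with GGGCGG and its reverse complement in capitals.
Ybx3 (chr6:131388451-131388700, minus strand): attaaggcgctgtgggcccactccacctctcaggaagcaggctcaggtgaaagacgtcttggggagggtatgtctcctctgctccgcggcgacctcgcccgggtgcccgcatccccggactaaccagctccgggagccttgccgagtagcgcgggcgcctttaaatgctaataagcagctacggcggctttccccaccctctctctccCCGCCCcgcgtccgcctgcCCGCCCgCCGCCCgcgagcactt
Akt1 (chr12:112674277-112674526, minus strand): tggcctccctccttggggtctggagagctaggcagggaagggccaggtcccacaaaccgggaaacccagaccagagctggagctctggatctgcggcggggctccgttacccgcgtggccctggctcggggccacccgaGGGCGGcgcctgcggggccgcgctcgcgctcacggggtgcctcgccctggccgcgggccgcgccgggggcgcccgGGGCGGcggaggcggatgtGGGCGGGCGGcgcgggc
These held 3 and 4 copies, overlapping copies included. A match of letters is a description and not a binding site.

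Relatives and partners of the 9 genes were read in the same fit. Of 16 such genes, 15 were tested and 0 passed in limma, with 1 at an unadjusted p under 0.05 (Ppp2ca), and their counts stand beside 0.55% of all 10910 genes called in either direction and 538 lower and 485 higher at an unadjusted p under 0.05. Their log2 differences lay between -0.17 and 0.16. Gnaq was the only 1 of them with at least 80% GC in its first 300 transcript bases.

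**Figure D4:**
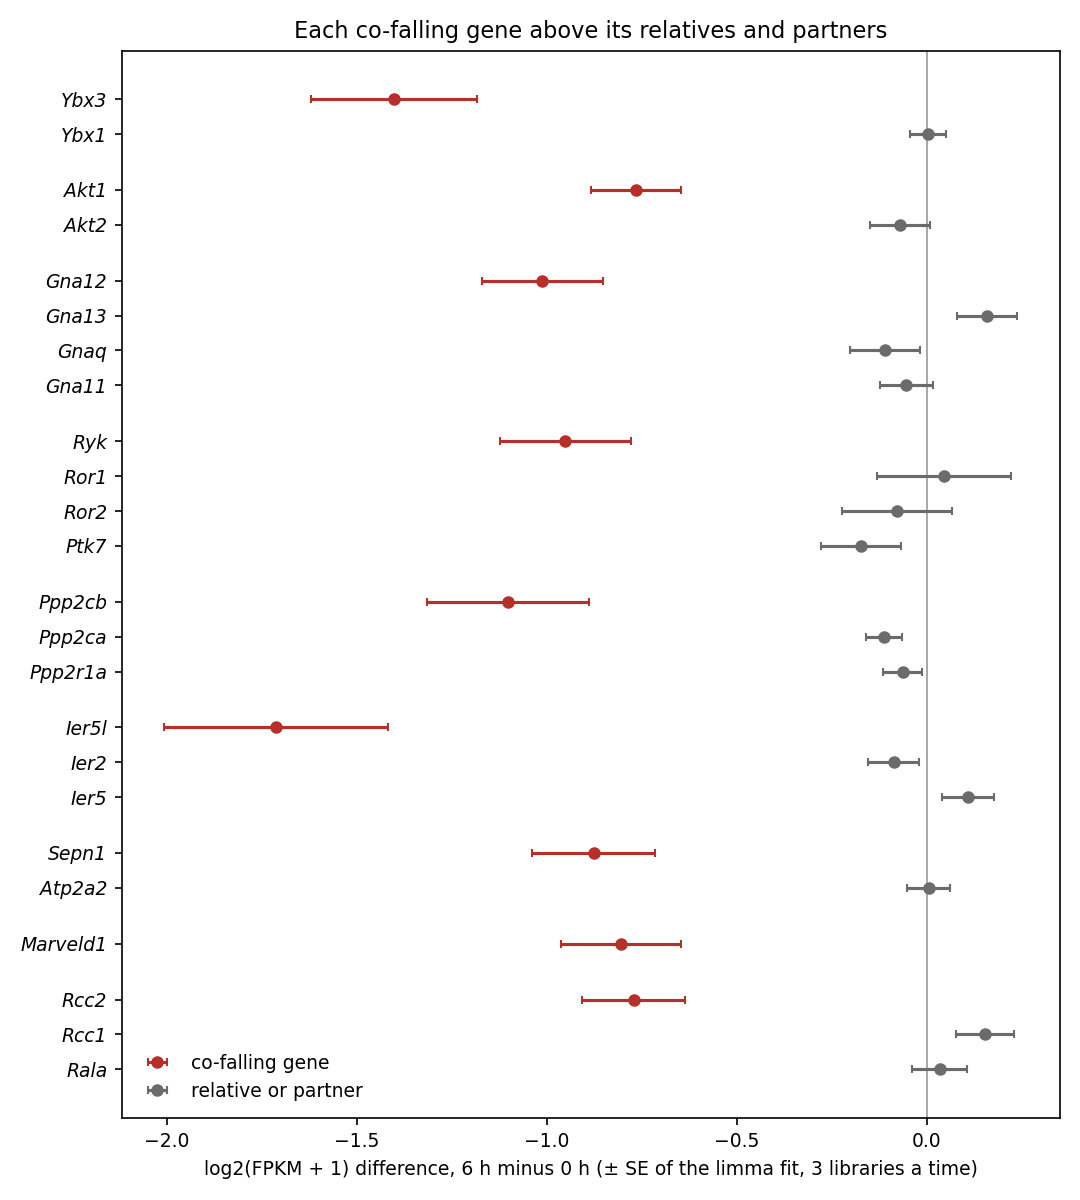
Log2(FPKM + 1) difference of 6 h minus 0 h (points) with the standard error of the limma fit (bars, 3 libraries a time) for the 9 co-falling genes and, under each, its tested relatives and partners. The 9 genes lie at or below -0.77 and the other 15 between -0.17 and 0.16.

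Lists of the surrounding pathways were counted in the same fit. Over 9 lists, 167 of 169 genes were listed and 140 tested, and 0 passed in limma against 0.55% of all tested genes in either direction, with 13 at an unadjusted p under 0.05. Their median log2 difference was 0.00, and 71 of the 140 were below 0. In the PI3K-AKT-mTOR list 14 of 29 genes were below 0, with a median of 0.01. The catalytic subunit gene Pik3ca stood at 2.34 ± 0.342 FPKM at 6 h and 4.18 ± 0.585 FPKM at 0 h (adjusted p = 0.124, limma), followed by Rps6kb1 and Rheb with positive differences of 0.21 and 0.08. In the PP2A list 10 of 21 were below 0, with a median of 0.00, and Ppp2r5a, a regulatory subunit, stood at 22.5 ± 1.79 FPKM at 6 h and 29.4 ± 1.67 FPKM at 0 h (adjusted p = 0.0963, limma). Among Wnt receptors and transducers 6 of 16 were below 0, with a median of 0.08. Dvl1, which relays Wnt signals inside the cell, stood at 21.0, 19.1 and 29.8 FPKM at 6 h, against 34.9, 40.7 and 28.1 FPKM at 0 h (adjusted p = 0.188, limma), with its groups overlapping only through the libraries numbered 3. It had 83.0% GC in its first 300 bases, and it was called lower, at -0.88, when both libraries numbered 3 were left out. Fzd8 and Fzd1, Wnt receptors, differed by -0.44 and 0.28.

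The medians of the remaining lists lay between -0.04 and 0.04. G12/13 signalling and G protein alpha subunits had 12 of 20 below 0 and a median of -0.02, with Lpar6 at -0.34. Selenoproteins and their synthesis genes had 15 of 25 below 0 and a median of -0.02. Those with the smallest p were Txnrd1, a thioredoxin reductase, at -0.21, Trnau1ap, a factor of selenocysteine insertion, at -0.24, and Sepp1 at 0.23. MARVEL domain genes had 5 of 8 below 0 and a median of -0.04, with Syngr2 at -0.25. RCC2 partners and the RCC1 family had 6 of 13 below 0 and a median of 0.01. The IER family had 2 of 4 below 0 and a median of 0.03, and cold shock domain genes 1 of 4 and a median of 0.04.

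In the genotype libraries, which took no part in the choice of the genes, each of the 9 genes had close levels in the knockout and the control. The targeted gene Cxcl12, which encodes a chemokine, stood at 739.7 FPKM in the knockout and 1298 FPKM in the control, and lay between 860 and 969 FPKM in the time libraries. Ybx3 stood at 191 FPKM in the knockout and 195 FPKM in the control, Akt1 at 114 FPKM in the knockout and 109.7 FPKM in the control, and Ryk at 80.4 FPKM in the knockout and 80.5 FPKM in the control. Gna12 stood at 71.5 FPKM in the knockout and 65.4 FPKM in the control, and Sepn1 at 82.1 FPKM in the knockout and 75.2 FPKM in the control. Marveld1 stood at 43.6 FPKM in the knockout and 41.1 FPKM in the control, and Rcc2 at 12.2 FPKM in the knockout and 10.8 FPKM in the control. Ppp2cb stood at 39.0 FPKM in the knockout and 44.7 FPKM in the control, and Ier5l, the furthest apart, at 15.9 FPKM in the knockout and 21.2 FPKM in the control. None of the 9 was 1.5-fold apart on the log2(FPKM + 1) scale. Of 14949 genes averaging 1 FPKM or more over both libraries, 88.8% were likewise less than 1.5-fold apart, 7% were lower and 4.16% higher in the knockout. With 1 library a genotype there is no replicate check and no test. Markers of other cells differed more: the 10 epithelial markers summed to 869 FPKM in the knockout and 87.5 FPKM in the control, the leukocyte markers to 249 FPKM in the knockout and 203 FPKM in the control, and the endothelial markers to 42.4 FPKM in the knockout and 68.4 FPKM in the control. Their part in the genotype values was not tested.

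The levels in the genotype libraries differed from those of the time libraries in both directions, although the 2 sets may have been normalised separately, so no test was made between them. Gna12, Ryk, Sepn1 and Marveld1 stood above all 6 time libraries in both genotype libraries, Rcc2 stood below all 6, and Ybx3 lay between the 6 h and the 0 h libraries. Ppp2cb and Ier5l lay within the range of the 0 h libraries, and Akt1 lay near its highest 6 h library. The sum of the 6 mesenchymal markers was 12110 FPKM in the knockout and 10891 FPKM in the control, against 1022 to 1166 FPKM in the time libraries. Dcn, which encodes a matrix proteoglycan, stood at 6218 FPKM in the knockout, 5741 FPKM in the control and a mean of 322 FPKM in the time libraries. Col1a1, Col3a1 and Foxl1 were also higher in both genotype libraries. Pdpn was lower there, at 91.7 FPKM in the knockout and 96.1 FPKM in the control, against a mean of 291 FPKM in the time libraries. Pdgfra stood at 226 FPKM in the knockout and 202 FPKM in the control, against a mean of 197 FPKM. The part of these marker differences in the levels of the 9 genes was not tested. Between 14818 and 14974 genes were above 0 in the time libraries, against 20874 in the knockout and 21006 in the control library.

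In the time libraries the genes of the sort that were read stood as the gate describes, and no Ly6C gene was among them. Pdgfra averaged 218 ± 9.89 FPKM at 6 h and 177 ± 22.1 FPKM at 0 h and Pdpn, which encodes gp38, 293 ± 7.98 FPKM at 6 h and 289 ± 12.4 FPKM at 0 h. Foxl1, which is not in the gate, did not exceed 0.289 FPKM in the time libraries and stood at 11.6 FPKM in the knockout and 10.2 FPKM in the control. Epcam did not exceed 0.48 FPKM, Ptprc 0.216 FPKM and Pecam1 0.165 FPKM in the time libraries. They were higher in the knockout and the control, with Epcam at 14.6 FPKM in the knockout and 4.18 FPKM in the control. Ptprc stood at 6.85 FPKM in the knockout and 4.82 FPKM in the control, and Pecam1 at 2.75 FPKM in the knockout and 4.86 FPKM in the control. The 10 epithelial markers summed to 4.24 to 6.21 FPKM at 6 h and 1.79 to 2.86 FPKM at 0 h. Of these 10, 6 stayed under 1 FPKM in all 6 time libraries. Krt8, the only 1 of them tested, averaged 2.06 ± 0.285 FPKM at 6 h and 0.396 ± 0.291 FPKM at 0 h. It reached the mean of 1 FPKM only through its 6 h values. Nothing is therefore read from its call (higher at 6 h, adjusted p = 0.0319, limma). The sums were 7.75 to 11.5 FPKM at 6 h and 4.18 to 16.0 FPKM at 0 h for 10 leukocyte markers, and 17.96 to 21.1 FPKM at 6 h and 14.3 to 19.2 FPKM at 0 h for 8 endothelial markers. For 6 smooth muscle and pericyte markers they were 542 to 609 FPKM at 6 h and 563 to 578 FPKM at 0 h. Most of the latter sums was Acta2, at means of 529 FPKM at 6 h and 515 FPKM at 0 h. Over the time libraries Actg2 averaged 39.7, Cspg4 12.3, Des 2.67, Myh11 0.793 and Rgs5 0.171 FPKM. Of the endothelial markers Tek averaged 9.43 and Esam 5.20 FPKM, and 4 of the 8 stayed under 1 FPKM in all 6 time libraries. The 6 mesenchymal markers summed to 1154 to 1166 FPKM at 6 h and 1022 to 1052 FPKM at 0 h, with a median log2 difference of 0.22 over the 5 tested, of which 0 passed. The epithelial sums, low at both times, and the mesenchymal sums moved with time without overlap, and their part in the falls was not tested.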

How the data were processed

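RNA was made into full-length cDNA with a SMART-Seq HT kit and Nextera XT libraries, per the labels' protocols. This chemistry does not mark strand, so reads of overlapping antisense genes cannot be told apart. The authors deposited 1 table of FPKM per library, per the file headers. Cuffdiff 2.2.1, SAMtools 0.1.18, Bowtie2 2.2.8 and TopHat2 2.1.1 appear in the submitters' processing notes, with the mm10 build. The sources used here state neither the annotation nor how libraries were scaled against each other. Read depth is unknown and counting intervals cannot be given. Total FPKM ran from 513001 to 579004.

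From these values, log2(FPKM + 1) of the 6 time libraries was fitted by group in R 4.3.3 (limma 3.58.1, trended prior variance) over 10910 genes whose mean reached 1 FPKM. Adjusted p-values are two-sided Benjamini-Hochberg values over all of these, with a threshold of 0.05. A log2 difference on this scale understates changes of low genes. The labels do not say that replicates were separate animals or cultures, and the p-values cover only library-to-library spread, which may be technical. The 9 genes and all lists were chosen with earlier results of these data known. Named beside the 9 genes were fixed relatives, the genes of each list with the smallest p, and the 10 genes most alike; others are marked. Transcript composition used GENCODE M21, with Sepn1 matched as Selenon through RefSeq synonyms. Alternatives were another pseudocount, other filters, scalings and start windows, no trend, a replicate block and each library left out. Protein sequences were not used here. Some genes counted in lists are not reported here singly. The fit was tested on simulated data with independent noise between genes and planted changes larger than those of the 9 genes. That simulation therefore does not bear on genes that move together between libraries. Same-numbered libraries were treated as unpaired, as the labels do not link them. Their deviations over all genes correlated between -0.044 and 0.013, and those of libraries with other numbers between -0.034 and 0.067. These values cannot exclude a pairing that shows in some genes only.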

Additional observations from a re-analysis of the deposited data

How the results depend on the processing

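The 9 genes were chosen for lying lower at 6 h and moving together between replicates. Over the 14 other settings, 125 of their 125 fitted differences were below 0. Because of that choice, the unchanged direction is not evidence of stability. All 9 were among the 34 genes called lower in the fit described, and 8 were among the 28 called lower after quantile normalisation. Without both libraries numbered 3 it was 8 of 48, without 6 h replicate 3 it was 4 of 11, and with the replicate block 2 of 9. Of the 9 genes, 0 were called without the filter, without the trend, and without 0 h replicate 1 or 2 or 6 h replicate 1 or 2. Their median difference of -0.95 ranged from -1.13 to -0.78 with 1 library left out and moved beyond the spread of libraries only without both libraries numbered 3 (-1.30). The number of lower and higher genes did not stay: limma gave 0 and 0 without the filter on low values (691 and 631 at an unadjusted p under 0.05) and 0 and 0 without the intensity trend (444 and 516). With 1 library left out, the lower genes ranged from 0 to 58 and the higher genes from 0 to 45. Without 6 h replicate 2, where both counts were 0, 482 lower and 392 higher genes had an unadjusted p under 0.05, and without 6 h replicate 3, where 0 were higher, 400 did. Without both libraries numbered 3 the counts were 48 and 8, with 1 list gene, Dvl1, called lower. With the replicate number as a block, 9 genes were lower and 14 higher, but the labels do not say that same-numbered libraries belong together. The share of lower genes in the top 20% of GC was 0% of 1 gene without 0 h replicate 1, 69.2% of 52 without 0 h replicate 3 and 66.7% of 9 without 6 h replicate 3, had no called gene with a transcript when any of the other 3 libraries was left out, was 80% without both libraries numbered 3, and was 54.8% for the first 100 bases; the alternatives on base composition were chosen after seeing the data. The median difference of the 169 GC-rich genes ran from -0.16 to -0.09 over all settings. The genotype medians and the median correlations moved by less than their spread over genes or pairs. For the changed counts, the cause was not tested. No sample was left out within a time for the correlations, since 2 points give none.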
